A study of Mus musculus with 2 samples.

Results

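The genes described here were those of the CaMKII family and calmodulin, 9 genes in all, among 19494 genes named on the array. They were the 4 subunits of Ca2+/calmodulin-dependent protein kinase II (Camk2a, Camk2b, Camk2d and Camk2g), the CaMKII inhibitor Camk2n1, the kinases Camk4 and Camkk2, and the calmodulin genes Calm2 and Calm3. The set was chosen because Camk2a differed strongly between the arrays, so the values of the 9 genes are a description and no test was made of them. RNA came from cells sorted magnetically as astrocytes, with an antibody against ACSA-2, an astrocyte surface antigen, from cortices on the side of the infarct. The mice were male C.B-17/Icr-+/+Jcl mice aged 7 weeks, and all had a permanent occlusion of the middle cerebral artery (MCAO), a model of focal cerebral ischemia. In the MCAO + exercise group, a running wheel was available for 15 days after surgery, and the MCAO + non-exercise group was caged without one. Mice of both groups had a wheel before MCAO and, per the study's methods, received 5-bromo-2′-deoxyuridine, a label of newborn cells, at 50 mg/kg/day in the first days. Each group was measured on 1 Clariom S array at post-operative day (POD) 15, from a pool of 4 RNA samples of 2 or 3 mice each. The pools hide the spread between mice, and with 1 array per group there was no replicate, no error and no test.

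CaMKII is a kinase of multiple subunits that is switched on when Ca2+-loaded calmodulin binds it, and it can then phosphorylate itself and stay active after Ca2+ has fallen. The alpha and beta subunits are the main forms of forebrain neurons, where CaMKII is abundant at the postsynaptic density and is needed for long-term potentiation, and Camk2a mRNA is also carried into dendrites. The delta and gamma subunits are made in most tissues, glia included. Calmodulin is the shared Ca2+ sensor of these kinases, of the phosphatase calcineurin and of many other enzymes, and Calm2 and Calm3 encode the same protein.

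Values are intensities on a linear scale as deposited, or log2 of them where so named. Differences are on the log2 scale and were taken as MCAO + exercise minus MCAO + non-exercise, so a positive one means a higher signal with exercise. The median intensity over 22142 probe sets was 106.4 on the exercise array and 112.3 on the non-exercise array. As background the 25th percentile over named probe sets was taken, with log2 values of 4.89 on the exercise array and 5.08 on the non-exercise array. Of all genes, 15196 were above it on at least 1 array, and all 9 genes of the set were above it on both. A gene was counted as higher or lower when its log2 difference was above 1 or under -1, the threshold of the study. By this rule 573 genes (3.77%) were higher and 359 (2.36%) were lower in MCAO + exercise. The study applied that threshold after removing genes below its negative control, a different filter, and it lists far fewer genes. Many genes counted here, Camk2n1 and Camk2b among them, are not in its lists. The direction follows the deposited labels. It is opposite to the direction that the study gives for every gene named here that it lists, which are Camk2a, Calm3, Rcan2, Trp53inp2, Selenow (under its older name), Kif5b, Kif1a, Scd1, Mobp, Slc1a3 and Aldoc. For these genes the size of each difference is the same as the study lists, with only the sign reversed. The study also reports, for the secreted protein Lcn2, fewer positive astrocytes with exercise and a tendency to less mRNA by qPCR, both in its own direction. The direction of all differences here is thus tied to the labels. If the labels of the 2 arrays had been exchanged, every difference given here would take the other sign. Whether they were exchanged was not tested, so a higher signal with exercise is a reading of the labels only.

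Of the 9 genes, Camk2a, Camk2n1, Camk2b and Calm3 were higher in MCAO + exercise, none was lower, and the other 5 lay within 1 of 0 on the log2 scale. The median difference over the 9 genes was 0.03, against 0.04 over all 15196 genes. Thus the set did not move as a block, and the genes that differed were the neuron-enriched kinase subunits, an inhibitor of the kinase and 1 of the measured calmodulin genes. Because the set was chosen on this contrast, the count of 4 higher genes is given beside the 3.77% over all genes without a reading.

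Camk2a, the alpha subunit, had an intensity of 37254 in MCAO + exercise and 4263 in MCAO + non-exercise, which is 15.19 and 12.06 on the log2 scale. The difference of 3.13 corresponds to 8.74-fold, and it was the 8th highest of all 15196 genes. Camk2b, the beta subunit, which also binds actin filaments, had an intensity of 832 in MCAO + exercise and 340.0 in MCAO + non-exercise. Its difference was 1.29, or 2.45-fold, and ranked 262 from the highest. Both neuronal subunits were thus higher on the exercise array, and the difference of Camk2a was larger than that of Camk2b by 1.84 on the log2 scale.

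The broadly expressed subunits lay on the other side of 0. Camk2d, the delta subunit, which is the main CaMKII form in heart, had an intensity of 7036 in MCAO + exercise and 8712 in MCAO + non-exercise, a difference of -0.31. Camk2g, the gamma subunit, had 1094 in MCAO + exercise and 1317 in MCAO + non-exercise, a difference of -0.27. Neither reached the threshold, and on a linear scale the non-exercise array was 1.24-fold the exercise array for Camk2d and 1.20-fold for Camk2g.

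The mean difference of Camk2a and Camk2b was 2.21 and that of Camk2d and Camk2g was -0.29, so the neuronal subunits stood 2.50 above the broadly expressed ones on the log2 scale. On a linear scale this is a 5.65-fold ratio of ratios. Each of the 4 pairs gave the same order, which follows from the signs of the same 4 differences and adds no support. Camk2a exceeded Camk2d by 3.44 and Camk2g by 3.40, whereas Camk2b exceeded Camk2d by 1.60 and Camk2g by 1.56. The gap within the neuronal pair was therefore wider than the gap between Camk2b and either broadly expressed subunit. These are differences of differences within the same 2 arrays, and levels of different genes were not compared, since each probe set has its own affinity.

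**Figure D1:**
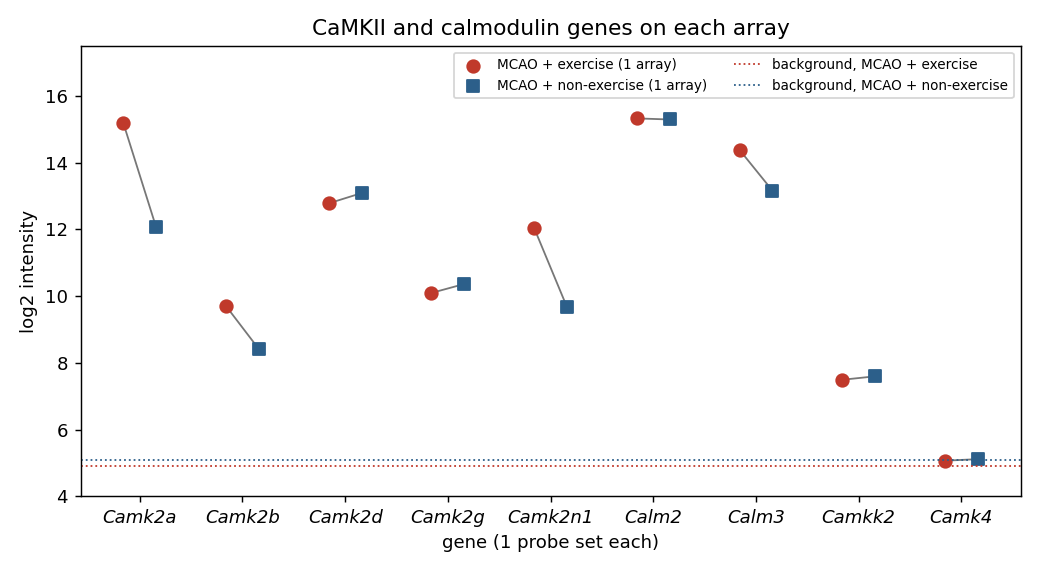
Log2 intensity (y axis) of the 9 genes of the CaMKII family and calmodulin (x axis) on the MCAO + exercise array and the MCAO + non-exercise array, 1 point per array and gene, with the background of each array. Camk2a, Camk2n1, Camk2b and Calm3 lie apart by 1.22 to 3.13, and the points of the other 5 genes lie within 0.31 of each other.

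Camk2n1 encodes a small protein that binds CaMKII in brain and blocks its activity. Its intensity was 4216 in MCAO + exercise and 815 in MCAO + non-exercise, a difference of 2.37 or 5.18-fold, and it ranked 33 from the highest. Camk2n1 was thus higher on the same array as the kinase subunits Camk2a and Camk2b, and its difference lay between theirs. It exceeded the difference of Camk2b by 1.08 and that of Camk2d by 2.68.

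The calmodulin genes differed from each other. Calm3 had an intensity of 21375 in MCAO + exercise and 9182 in MCAO + non-exercise, a difference of 1.22 or 2.33-fold, and ranked 318 from the highest. Calm2 had 41126 in MCAO + exercise and 40192 in MCAO + non-exercise, a difference of 0.03. The difference of Calm3 was above that of Calm2 by 1.19, close to its whole size, since Calm2 was nearly level between the arrays. Of the calmodulin-like genes, Calm4, Calm5 and Calml3 were not above background on either array. Each of the 9 genes had 1 probe set, and none shared its values with another, but whether the probes of Calm2 and Calm3 also bind RNA of each other was not tested.

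The sequence upstream of the start is shown for genes on both sides of the contrast, Camk2b and Calm3 from the higher genes and Camk2d from the broadly expressed subunits. RefSeq promoters of the GRCm38.p6 assembly were matched for 4 of the 9 genes, namely Camk2b, Camk2d, Camkk2 and Calm3, and Camk2a, Camk2g, Camk2n1, Camk4 and Calm2 had no entry. The 250 bases before the start are given 5′ to 3′ on the strand of the gene, with capitals marking GC boxes (GGGCGG on either strand). The regions are chr11:6065749-6065998 on the minus strand for Camk2b, chr7:16924033-16924282 on the minus strand for Calm3 and chr3:126596701-126596950 on the plus strand for Camk2d.
Camk2b: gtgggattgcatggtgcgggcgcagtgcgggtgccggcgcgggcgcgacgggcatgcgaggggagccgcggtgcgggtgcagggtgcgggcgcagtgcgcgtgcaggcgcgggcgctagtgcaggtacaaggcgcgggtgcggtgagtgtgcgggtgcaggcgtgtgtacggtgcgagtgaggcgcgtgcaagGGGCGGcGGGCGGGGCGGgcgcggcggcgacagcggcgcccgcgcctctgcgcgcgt
Calm3: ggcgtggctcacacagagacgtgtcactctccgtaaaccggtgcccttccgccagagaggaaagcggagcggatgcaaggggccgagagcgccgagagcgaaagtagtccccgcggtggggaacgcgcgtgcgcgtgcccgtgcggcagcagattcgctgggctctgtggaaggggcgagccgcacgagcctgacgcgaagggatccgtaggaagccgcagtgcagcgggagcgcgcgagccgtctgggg
Camk2d: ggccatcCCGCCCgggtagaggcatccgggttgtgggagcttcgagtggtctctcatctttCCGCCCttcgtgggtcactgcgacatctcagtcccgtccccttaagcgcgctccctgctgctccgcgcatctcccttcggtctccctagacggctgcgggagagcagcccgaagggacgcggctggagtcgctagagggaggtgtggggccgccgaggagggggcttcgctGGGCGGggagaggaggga

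All these regions were rich in G and C. The GC content was 78.4% for Camk2b, 69.2% for Calm3 and 68.4% for Camk2d, against a median of 52.4% over 32851 promoters of the same length. CpG dinucleotides numbered 44 in Camk2b, 33 in Calm3 and 23 in Camk2d, against a median of 6. Camk2b and Camk2d each held 3 GC boxes, Calm3 held 0, and 32.7% of all promoters held at least 1 and 8.47% at least 3. In Camk2b the last box shared a base with the one before it. The same number of GC boxes thus stood before a gene that was higher and a gene that was not. A half-site of the cAMP response element (TGACG, either strand) was found once in Calm3 and in neither Camk2b nor Camk2d, and 17.8% of all promoters held it. CCAAT and TATAAA, searched on both strands, were in none of these regions, and 33.8% and 12.4% of all promoters held them.

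Camkk2 and Camk4 form another branch, in which Camkk2 phosphorylates and activates Camk4, Camk1 and AMP-activated kinase, and Camk4 phosphorylates the transcription factor CREB in the nucleus. Camkk2 had an intensity of 180.0 in MCAO + exercise and 193 in MCAO + non-exercise, a difference of -0.10. Camk4 had 33.5 in MCAO + exercise and 34.6 in MCAO + non-exercise, a difference of -0.05. Camk4 stood only 0.17 above the background of the exercise array and 0.04 above that of the non-exercise array on the log2 scale. A lower signal of this gene on either array could thus hardly have been seen. Neither kinase reached the threshold.

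Brighter genes were more often higher on the exercise array, so the 9 genes were also read against genes of like level. Kept genes were split by mean log2 level into 4 bins of 3799 genes, and the median difference was -0.18, -0.03, 0.15 and 0.17 from the lowest to the highest bin. Of the 9 genes, 6 were in the highest bin (Camk2a, Camk2d, Camk2g, Camk2n1, Calm2 and Calm3), and there 180 genes (4.74%) were higher by more than 1. Camk2a ranked 6, Camk2n1 ranked 18 and Calm3 ranked 116 from the highest in this bin. Camk2b lay in the third bin, where 196 genes (5.16%) were higher, and ranked 77 there. Camk2d ranked 3413 and Camk2g ranked 3326 of the 3799 genes in the highest bin, so both were toward its low end although their differences were small.

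**Figure D2:**
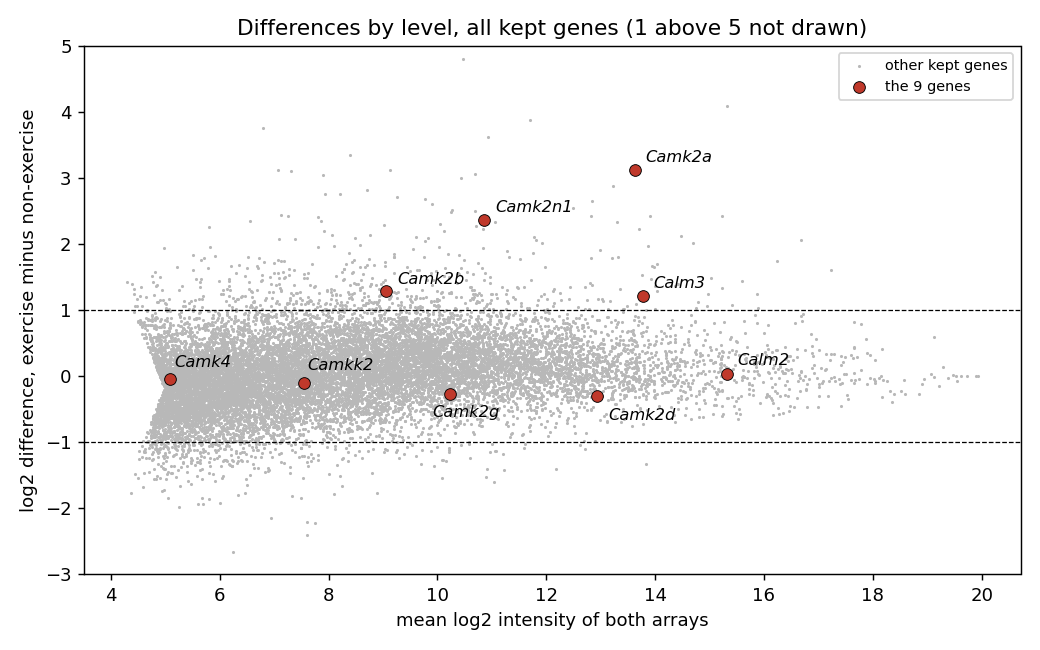
Log2 difference, MCAO + exercise minus MCAO + non-exercise (y axis), against the mean log2 intensity of both arrays (x axis) for the 15196 kept genes, with the 9 genes of the CaMKII family and calmodulin named and the threshold of 1 and -1 drawn. Camk2a at 3.13 and Camk2n1 at 2.37 lie at the upper edge of genes of their level, while Camk2d, Camk2g, Calm2, Camkk2 and Camk4 lie between the threshold lines, and 1 gene above 5 is not drawn.

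The genes whose pair of values was nearest to that of Camk2a, by Euclidean distance of the log2 values over the 2 arrays, were Trp53inp2, Selenow, Kif5b, Kif1a and Scd1. Trp53inp2, a regulator of autophagy, had 14.66 in MCAO + exercise and 11.78 in MCAO + non-exercise at a distance of 0.59. Selenow, a small selenoprotein, had 15.11 in MCAO + exercise and 12.69 in MCAO + non-exercise at a distance of 0.64. The kinesins Kif5b (distance 0.65) and Kif1a (distance 0.72), motors of axonal transport, differed by 2.23 and 2.33. Scd1, a fatty acid desaturase, differed by 1.97 at a distance of 0.89. With 2 arrays the distance only says that both values were close to those of Camk2a.

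The other genes of the pathway were read from 11 lists, which held 172 different genes besides the 9 and some of which share genes. Of these, 156 had a named probe set, 143 were above background on at least 1 array, 17 were higher in MCAO + exercise and 4 were lower. The median difference of the 143 genes was 0.15. The list of other calmodulin-dependent kinases, with the inhibitor Camk2n2, had 13 kept genes and a median of -0.01, and 0 were higher or lower. Over all genes 3.77% were higher and 2.36% were lower, so a count of 0 in so short a list has no reading. The same shares stand beside the counts of every list below, cell type markers included. Counts of 0 or 1 in such lists likewise have no reading. The gene of this list nearest to 0 was Phkg2, a catalytic subunit of phosphorylase kinase, at -0.00. Camk2n2, the second CaMKII inhibitor, had 7.30 in MCAO + exercise and 7.12 in MCAO + non-exercise, a difference of 0.17, where Camk2n1 had 2.37.

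Calcineurin is the calmodulin-dependent phosphatase that acts against many kinase targets. The list of calcineurin and its regulators had 12 kept genes and a median of 0.03, and 1 gene was higher and none was lower. The higher gene was Rcan2, which encodes a regulator that binds calcineurin, at 14.03 in MCAO + exercise and 11.60 in MCAO + non-exercise, a difference of 2.43. The catalytic subunits Ppp3ca, Ppp3cb and Ppp3cc differed by 0.31, 0.35 and 0.18. The count of 1 higher gene in this list has no reading beside the 3.77% over all genes. Nfatc2, a transcription factor that calcineurin activates, was at -0.06.

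Proteins that bind and hold calmodulin gave 3 higher and 0 lower genes of 17, with a median of 0.30. Of the 17 differences 16 were above 0 as deposited, but 11 were after median centring and 12 after quantile normalization or the loess correction. Pcp4, which speeds the exchange of Ca2+ on calmodulin, had 9.53 in MCAO + exercise and 7.44 in MCAO + non-exercise on the log2 scale, a difference of 2.09. Nrgn, which holds calmodulin in dendrites, differed by 1.24, and Gap43, which does so in growing axons, by 1.02, the smallest of the 3. After any of these further scalings, 2 genes of the list were higher. These 3 are small proteins of neurons with an IQ motif, whereas the adducin Add2 was at 0.00. Among 14 calmodulin-regulated enzymes and pumps, 1 was higher, the phosphodiesterase Pde1c at 1.25, and 0 were lower, with a median of 0.01. Itpkb, an inositol trisphosphate kinase, was nearest to 0 in that list at -0.14.

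EF-hand proteins are Ca2+ sensors and buffers related to calmodulin. Here 6 of 15 kept genes were higher and 0 were lower, but the median was -0.02, so the list was split. Vsnl1, a visinin-like sensor of neurons, had 10.06 in MCAO + exercise and 6.71 in MCAO + non-exercise, a difference of 3.34 that exceeded that of Camk2a. Hpcal4 differed by 2.08, S100b, a Ca2+-binding protein of astrocytes, by 1.80, and Ncs1, a sensor of neurons, by 1.56. Hpcal1, a sensor of the same family, was at -0.02. The sign of this median turned with the scaling, to 0.08 after quantile normalization and 0.10 after a loess correction by level.

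Synaptic partners and substrates of CaMKII were divided. Among 19 kept genes, 2 higher and 3 lower ones were found, and the median was 0.15. Dlg4, the scaffold PSD-95, had 11.63 in MCAO + exercise and 9.99 in MCAO + non-exercise, a difference of 1.64, and Cask, a scaffold with a kinase domain like that of CaMKII, differed by 1.25. In the other direction, Grin2b, the NMDA receptor subunit to which active CaMKII docks, had 6.39 in MCAO + exercise and 8.80 in MCAO + non-exercise, a difference of -2.41. Grin2a, another NMDA receptor subunit, differed by -1.14 and Cacna1c, an L-type Ca2+ channel, by -1.11. Thus a docking partner of CaMKII was lower on the array on which Camk2a was higher. Shank2, a postsynaptic scaffold, was nearest to 0 at 0.15.

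Camk2a is one of the mRNAs known to lie in dendrites, and a list of others was therefore read. It held 13 kept genes with a median difference of 0.79, and 5 were higher and none was lower. Ddn, which encodes the postsynaptic protein dendrin, had 8.87 in MCAO + exercise and 5.76 in MCAO + non-exercise, a difference of 3.11, next to the 3.13 of Camk2a. Psd, an exchange factor for the small GTPase Arf6, differed by 2.71, Dlg4 by 1.64 and Snap25, a protein of vesicle release, by 1.46, and Eef1a1, a translation elongation factor, was at 0.01. With the gene that was above background on 1 array set to its bound, the median was 0.60. Around Camkk2 and Camk4, 1 of 18 kept genes was higher, Crtc1, a coactivator of CREB, at 1.02, and 0 were lower, while Creb1 itself was at 0.06. That count of 1 was 0 after median centring, quantile normalization, the loess correction and an offset.

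**Figure D3:**
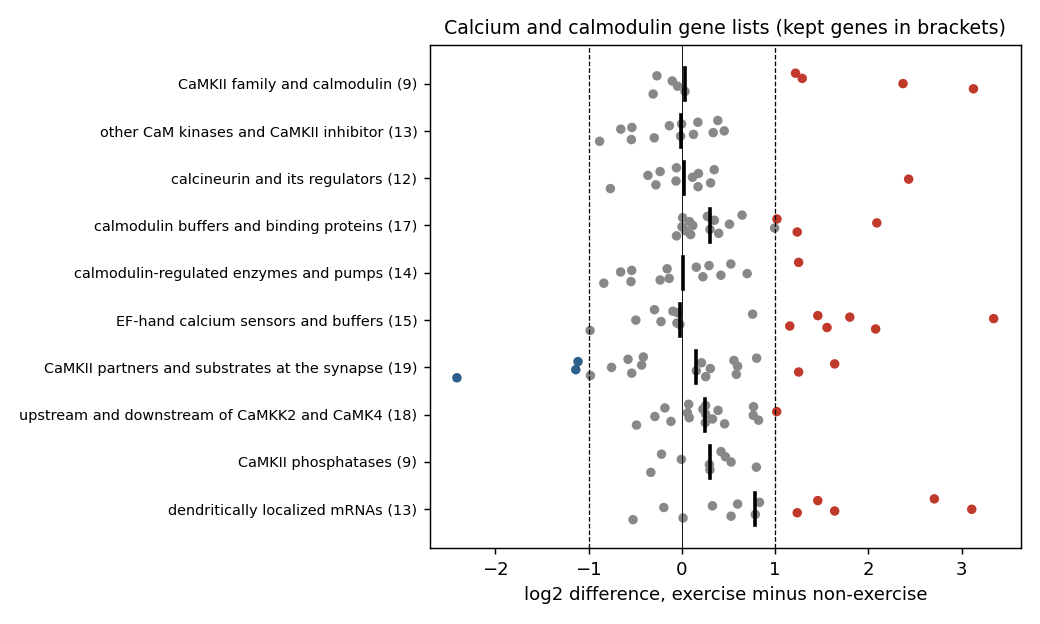
Log2 difference, MCAO + exercise minus MCAO + non-exercise (x axis), of every kept gene of the CaMKII family and calmodulin and of 9 of the 11 lists (rows), 1 point per gene with the median of the list as a bar and the threshold of 1 and -1 drawn. The dendritic list has the highest median at 0.79, the EF-hand list is split with 6 genes above 1, and no other CaM kinase passes 1 on either side.

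Since Camk2a and Camk2b are neuron-enriched, markers of the cell types that the sort could hold were read beside them. The lowest intensity of any probe set was 5.53, so no marker could be at 0, and presence was read against background. The 11 kept excitatory neuron markers had a median of 0.42, 4 of them were higher and none was lower, and the summed intensity of the 13 measured markers was 2651 in MCAO + exercise and 1453 in MCAO + non-exercise. This median rests on 2 dim genes that were above background only on the exercise array. It was 0.28 with those genes at their bound, 0.65 over the 9 genes above background on both arrays, of which 5 were above 0 and 4 under it, and 0.22 with an offset. Slc17a7, the vesicular glutamate transporter of cortical neurons, had 9.87 in MCAO + exercise and 8.21 in MCAO + non-exercise, a difference of 1.67. Rorb, a transcription factor of layer IV neurons, differed by 1.25, Nrgn by 1.24 and Fezf2, a transcription factor of deep-layer neurons, by 1.19, all below the 3.13 of Camk2a, and Nrn1 was at -0.04. Of the 15 kept pan-neuronal markers, 5 were higher and 1 was lower, with a median of 0.72 and summed intensities of 14710 in MCAO + exercise and 12040 in MCAO + non-exercise. Uchl1 (1.72), Celf4 (1.62), Snap25 (1.46) and Stmn2 (1.35) led this list, Eno2 was nearest to 0 at 0.14, and the synaptic vesicle protein Syt1 was lower, at 10.25 in MCAO + exercise and 11.85 in MCAO + non-exercise. On both arrays, 9 of the 13 measured excitatory and 15 of the 16 measured pan-neuronal markers were above background. Of the kept markers, 7 of the 11 excitatory and 9 of the 15 pan-neuronal ones stayed within the threshold.

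Inhibitory neuron markers were less uniform. Of 11 kept genes, 3 were higher (Cck at 2.41, Sst at 1.40 and Dlx2 at 1.01) and 1 was lower (Gad1, a GABA-synthesizing enzyme, at -1.04), with a median of 0.51. The summed intensity of the 14 measured markers was 1990 in MCAO + exercise and 1673 in MCAO + non-exercise, and Slc32a1 was nearest to 0 at -0.27. Dlx2 was above background only on the exercise array, and against the background of the other array it was at least 1.41-fold higher. With the genes above background on both arrays alone the median was -0.27.

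Astrocyte markers lay above 0 as deposited, but most stayed within the threshold. Of 18 kept genes, all 18 had a difference above 0 as deposited (16 after median centring, 15 after the loess correction and 14 after quantile normalization), 7 were higher (5 after quantile normalization) and none was lower. Their median was 0.69, with summed intensities of 278459 in MCAO + exercise and 181212 in MCAO + non-exercise. The highest were Gpr37l1 at 2.10, S100b at 1.80, Slc1a3 at 1.26 and Aldoc at 1.24, and Slc4a4 was at 0.08. Oligodendrocyte markers gave 3 higher (Enpp6 at 2.23, Mobp at 2.06 and Gpr17 at 1.25) and 0 lower genes of 14, a median of 0.83 and summed intensities of 1383933 in MCAO + exercise and 807710 in MCAO + non-exercise, with Mal nearest to 0 at 0.35. Microglia markers gave 0 higher and 0 lower genes of 14, a median of -0.19 and sums of 1290790 in MCAO + exercise and 1504631 in MCAO + non-exercise. Endothelial markers gave 0 higher and 0 lower genes of 12, a median of -0.31 and sums of 133722 in MCAO + exercise and 168862 in MCAO + non-exercise. Camk2d and Camk2g, at -0.31 and -0.27, thus had differences of about the size of these last medians. Camk2a, Camk2n1, Camk2b and Calm3 all exceeded the marker medians of every cell type. This follows from their being above 1, since the highest marker median was 0.83. Among single markers, Cck at 2.41 exceeded Camk2n1 at 2.37. All 14 measured oligodendrocyte and all 14 measured microglia markers were above background on both arrays. The values of the 9 genes thus cannot be read as those of astrocytes alone. In such bulk pools fewer cells of a type and less RNA per cell cannot be told apart. The part of each cell type in the differences of the 9 genes was not tested.

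**Figure D4:**
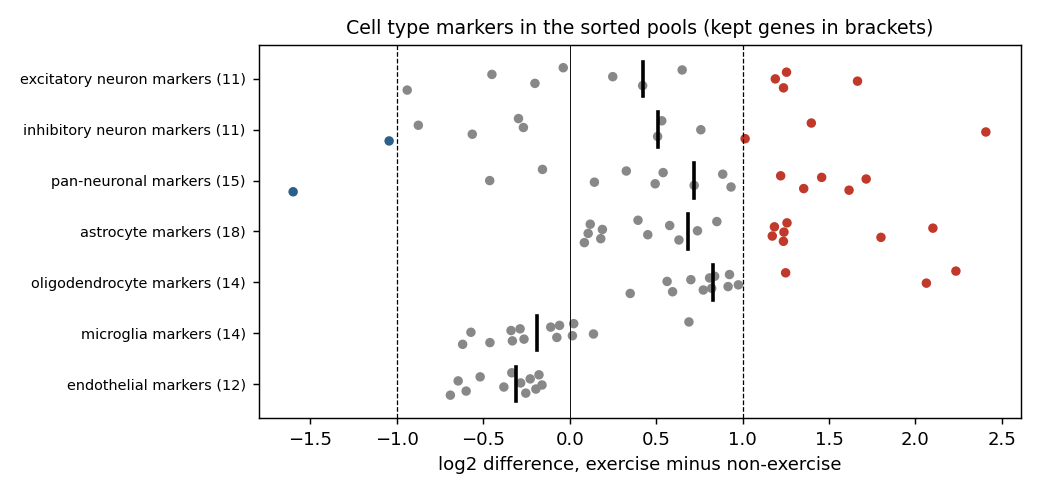
Log2 difference, MCAO + exercise minus MCAO + non-exercise (x axis), of each kept cell type marker (rows), 1 point per gene with the median of each list as a bar. Astrocyte and oligodendrocyte markers lie above 0 in all 18 and all 14 genes, endothelial markers lie under 0 in all 12 on the deposited scale (with 14 to 16 of the 18 astrocyte markers above 0 after further scaling), and neuronal lists spread on both sides.

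The calls of the 9 genes did not change with the processing. Under the values as deposited and 8 other settings, 4 genes were higher and 0 were lower each time. The background settings and the mean of probe sets could not alter these values. All 9 genes passed every background filter, and each had a single probe set. Only median centring, quantile normalization, the loess correction and the offset could move them. The difference of Camk2a ranged from 2.95 to 3.13, that of Camk2n1 from 2.17 to 2.37, that of Camk2b from 1.12 to 1.29 and that of Calm3 from 1.01 to 1.22. Calm3 thus came close to the threshold, after quantile normalization. Camk2d ranged from -0.50 to -0.31, Camk2g from -0.47 to -0.26 and Camkk2 from -0.21 to -0.09. Calm2 (from -0.14 to 0.03) and Camk4 (from -0.15 to 0.15) took either sign, so neither has a direction. The distance between the neuronal and the broadly expressed subunits ranged from 2.45 to 2.53, and median centring could not alter it.

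**Figure D5:**
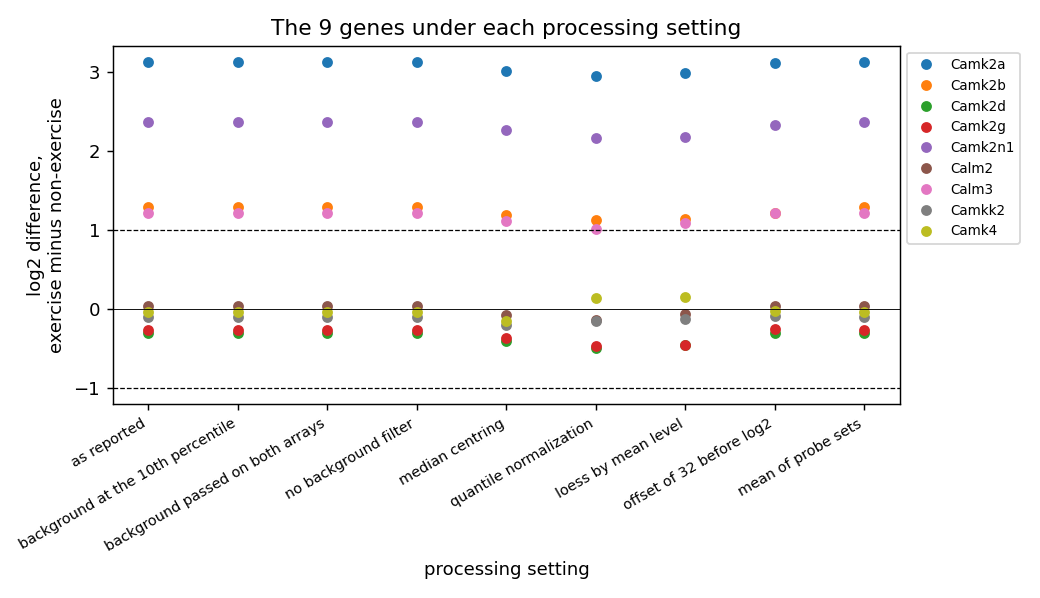
Log2 difference, MCAO + exercise minus MCAO + non-exercise (y axis), of the 9 genes under the values as deposited and 8 other settings (x axis), 1 point per gene and setting. Camk2a, Camk2n1, Camk2b and Calm3 stay above 1 throughout, with Calm3 lowest at 1.01 after quantile normalization.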

How the data were processed

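The deposited intensities, on a linear scale for 22142 probe sets, had been normalized for the authors by a contracted service, using GCCN-SST-RMA. Affymetrix Expression Console and RMA are named, with no version, in the submitters' processing notes. The genome build is not given in the sources used here. Log2 was taken without further scaling. Gene symbols came from the platform annotation (19527 probe sets with 1 symbol, 0 with several, 2615 with none), and the brightest probe set stood for each of 33 genes that had more than 1. The study filtered on its negative control, for which no probe set could be used here, and the 25th percentile of each array stood in for it. A gene above background on 1 array has a bound, its level over the other array's background.

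The 9 genes and the lists were chosen with earlier results of these data known. Named were the 9 genes, the 5 nearest to Camk2a, and in most lists up to 4 genes past the threshold in each direction and the one nearest to 0. No gene was named in the microglia and endothelial lists, nor was Calml4, the only kept gene among the other calmodulin genes. Camk2n2, Calm4, Calm5, Calml3, Ppp3ca, Ppp3cb and Ppp3cc were added after their values were seen.

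Alternatives were a background at the 10th percentile or passed on both arrays, no filter, median centring, quantile normalization, a loess correction (span 0.3), an offset of 32 and the mean of probe sets. The counting of calls was tested on simulated data. The number of arrays limits the precision. Tables were computed in Python 3.11.15 with pandas 2.3.3 and NumPy 2.4.6, the loess fit with statsmodels 0.14.6, and figures with matplotlib 3.10.9.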

Additional observations from a re-analysis of the deposited data

How the results depend on the processing

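All results of the 9 genes, and the distance between neuronal and broadly expressed CaMKII subunits, kept their side of the threshold under the 8 alternatives. The background settings and the mean of probe sets could not alter the values of these genes. Calm2 and Camk4 changed sign within 0.15 of 0. The number of genes counted as lower was not stable: it was 359 as reported, 230 with a background passed on both arrays, 575 after median centring and 99 with an offset of 32. Median centring moved the median of all genes by -0.11 and gave 433 higher and 575 lower genes (43.0% of the calls higher), against 573 and 359 (61.5%) as reported. With the offset the calls were 403 higher and 99 lower (80.3% higher), the offset shrinking differences of dim genes by its construction. The medians of the lists of EF-hand proteins, calcineurin (-0.10 to 0.11), enzymes and pumps (-0.10 to 0.03), astrocyte Ca2+ sources (-0.09 to 0.02) and inhibitory neuron markers took either sign. No paired analysis was possible because each group had 1 array.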

Other observations

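Genes that bring Ca2+ to calmodulin in astrocytes, and phosphatases that act on CaMKII, stayed mostly within the threshold. So did 14264 of all 15196 kept genes, and this does not set these lists apart. Of 16 kept genes for Ca2+ release, entry and pumping, 0 were higher and 1 was lower in MCAO + exercise, with a median of 0.02. The lower gene was Ryr2, a ryanodine receptor of the endoplasmic reticulum, at 6.12 in MCAO + exercise and 7.20 in MCAO + non-exercise, a difference of -1.08. Grm5, a glutamate receptor coupled to Ca2+ release, was at -0.01. Chosen after its values were seen, Itpr2, the main inositol trisphosphate receptor of astrocytes, had 12.49 in MCAO + exercise and 12.68 in MCAO + non-exercise, a difference of -0.19. Of 9 kept phosphatase genes, 0 passed the threshold in either direction, with a median of 0.30, and Ppp1r1b, the phosphatase inhibitor DARPP-32, was at -0.01.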
